A study of Mus musculus with 40 samples.

Results

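The mRNA of 22 end-stage mouse gliomas was compared by p53 genotype, 11 from p53R172HCKO mice and 11 from p53nullCKO mice. They were chosen by the genotype and tissue in their labels, out of 40 samples on Affymetrix mouse arrays with 1 array for each sample. Both genotypes carried hGFAP-cre, a Cre recombinase under the human GFAP promoter that acts in neural cells. In cells targeted by Cre, p53R172HCKO mice (hGFAP-cre+;p53LSLR172H/floxE2-10) had 1 allele with the missense change R172H and 1 allele without exons 2 to 10. In such cells p53nullCKO mice (hGFAP-cre+;p53floxE2-10/floxE2-10) had lost those exons on both alleles. Cells that Cre did not reach kept both alleles unrecombined, and the arrays read all cells of a glioma together. Those unreached cells also differed by genotype, with p53LSLR172H/floxE2-10 against p53floxE2-10/floxE2-10 alleles. Their part in the differences below was not tested. Both genotypes were on a mixed background of the same inbred strains and mostly littermates, and they were aged until signs of distress, while ages were not in the labels. The reference for levels was 5 dorsal cortices, 3 from hGFAP-cre+;p53floxE2-10/+ mice and 2 from hGFAP-cre-;p53floxE5-6/floxE5-6 mice. The pair of genotypes addressed whether the missense allele adds an oncogenic activity to the loss of p53.

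p53 is a transcription factor that stops the cell cycle or starts cell death after DNA damage. The R172H protein has largely lost binding to its normal DNA sites, and it has been studied for activities that a deletion does not give, such as binding other transcription factors. Gliomas hold tumor cells together with microglia, blood-derived macrophages, vessels and brain tissue. Type I and type II interferons act through STAT proteins and interferon regulatory factors to switch on antiviral enzymes, guanylate-binding proteins and chemokines, and the type I response works through a short promoter element named ISRE.

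Few genes passed the test, and all 6 that did were lower in p53R172HCKO gliomas: Ccl12, Isg20, Ccl4, Il1b, Pstpip1 and H1f7. This was 0.033% of 18193 genes at a limma adjusted p under 0.05, in a model with the 5 groups of all 40 arrays. No gene passed in the higher direction, where 916 genes were at unadjusted p under 0.05, and 1108 genes were so in the lower direction. In the 22 gliomas alone limma called 0 genes in either direction, with 843 genes lower and 681 higher at unadjusted p under 0.05. The median SD between arrays over genes was 0.43 log2 in p53R172HCKO gliomas, 0.41 in p53nullCKO gliomas, 0.33 in glioma cell lines and 0.18 in cortices, so the 6 calls rested on a spread shared with less variable groups. For none of the 18193 genes did the 11 gliomas of one genotype lie wholly above or below the other 11.

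Ccl12 and Ccl4 are chemokines that draw monocytes and other leukocytes. The log2 signal of Ccl12 ran from 4.01 to 9.11 with a median of 7.54 in p53R172HCKO gliomas, and from 7.17 to 11.31 with a median of 9.39 in p53nullCKO gliomas. Its difference (p53R172HCKO minus p53nullCKO) was -2.33 ± 0.46 (SE, n = 11 and 11), with limma adjusted p = 0.0448, and 0.364 in the gliomas alone. Of the p53nullCKO gliomas, 7 lay above the highest p53R172HCKO glioma, and the mean of the cortices was 4.81. Ccl4 ran from 5.34 to 7.05 (median 6.26) against 6.30 to 8.35 (median 7.33), a difference of -1.07 ± 0.20 with limma adjusted p = 0.0353, and 0.357 in the gliomas alone. A lower level in bulk tissue does not tell fewer cells of a type from less RNA per cell, here and for every gene below.

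Il1b encodes interleukin 1 beta, a cytokine of activated myeloid cells. It ran from 4.66 to 5.66 (median 5.13) in p53R172HCKO gliomas and from 5.11 to 7.35 (median 6.06) in p53nullCKO gliomas. The difference was -0.98 ± 0.17, with limma adjusted p = 0.0306, and 0.264 in the gliomas alone. Pstpip1, an adaptor of the leukocyte cytoskeleton that binds pyrin, ran from 4.87 to 6.29 (median 5.18) against 5.55 to 7.16 (median 6.12). Its difference was -0.87 ± 0.17, with limma adjusted p = 0.0437, and 0.357 in the gliomas alone. For Il1b 9 of 11 p53nullCKO gliomas lay above every p53R172HCKO glioma, and for Pstpip1 8 of 11 p53R172HCKO gliomas lay below every p53nullCKO glioma.

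Isg20, an interferon-induced exonuclease of RNA, ran from 5.07 to 7.30 (median 5.45) in p53R172HCKO gliomas and from 6.21 to 9.003 (median 7.23) in p53nullCKO gliomas. Its difference was -1.58 ± 0.30, with limma adjusted p = 0.0423, and 0.364 in the gliomas alone. The highest p53R172HCKO gliomas were arrays 60, 48 and 52, and the other 8 lay below the lowest p53nullCKO glioma. H1f7, a linker histone gene known from the testis, had the smallest of the 6 differences, -0.42 ± 0.08, with limma adjusted p = 0.0448 and 0.226 in the gliomas alone. It ran from 3.91 to 4.44 against 4.31 to 4.82, near the low end of the signals on these arrays. With the mean of its 2 probe sets in place of the brighter one, the difference was -0.17 with limma adjusted p = 0.272. Among the p53R172HCKO gliomas, arrays 46, 48, 50 and 52 were at 4.27 to 4.43 and the later 7 at 3.91 to 4.17, except array 58 at 4.44, and the part of array order in this difference was not tested. Of the 6 genes, 5 were at or below the median gene in mean signal over the gliomas.

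**Figure D1:**
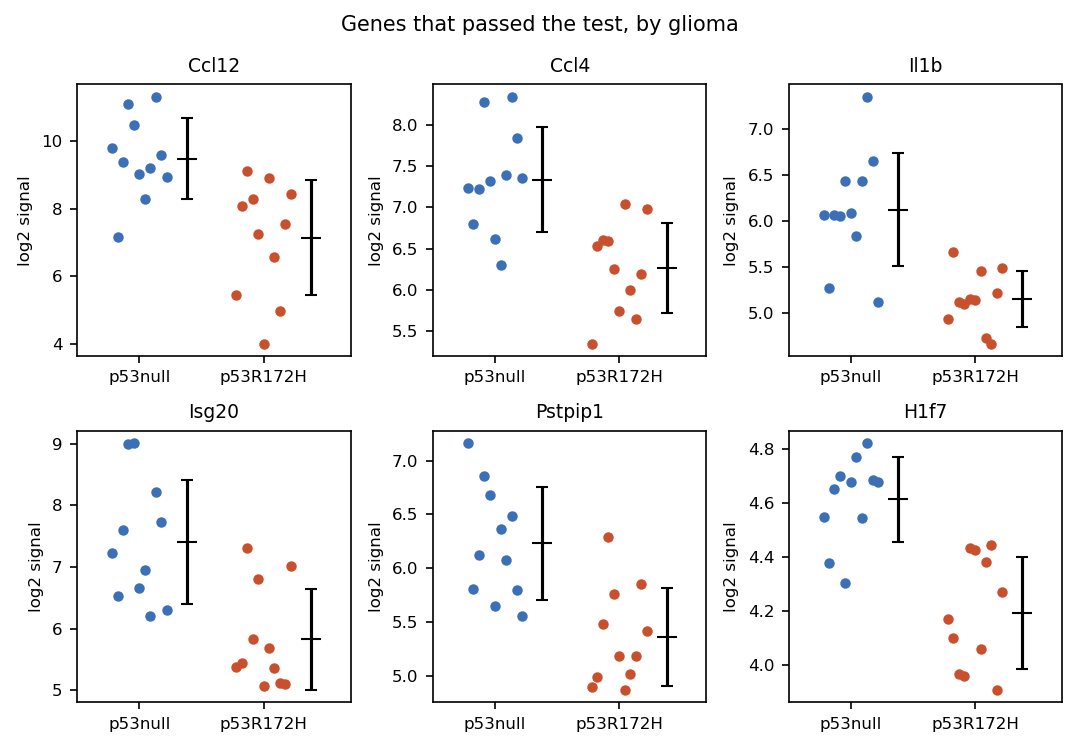
Log2 signal of the 6 genes that passed the test, 1 point per glioma (11 p53nullCKO in blue, 11 p53R172HCKO in orange), with the mean and SD of each genotype as a black bar. The genotypes overlap in all 6 panels, and for Il1b 9 p53nullCKO gliomas lie above every p53R172HCKO glioma.

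Each call depended on single tumors. With each of the 22 gliomas left out in turn, Il1b passed in 17 of 22 fits, Ccl4 in 15, Ccl12 and Pstpip1 in 12 each, Isg20 in 11 and H1f7 in 9. Without array 46, 54, 58, 43 or 45 limma called no gene lower, and without array 48 it called 38 genes lower and 33 higher. Over these fits 906 to 1273 genes were lower at unadjusted p under 0.05. Arrays 38, 45 and 58 had neuron markers near the cortex level, and without these 3 gliomas limma called 0 genes in either direction, with 863 genes lower and 662 higher at unadjusted p under 0.05. Arrays 36, 41 and 50 had the highest means of neuroblast and granule neuron genes relative to cortex, 1.61, 1.33 and 1.82, where the other gliomas ran from -1.91 to 1.17, and the lowest means of oligodendrocyte progenitor genes, -1.31, 0.07 and -2.36. Without them limma called 7 genes lower and 1 higher. The array numbers follow the genotype, 35 to 45 for p53nullCKO and 46 to 67 for p53R172HCKO gliomas, so an effect of array order and one of genotype cannot be told apart.

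Just outside the threshold lay more genes of the same kind. Cxcl13, a chemokine for B cells, differed by -1.997 ± 0.41 (limma adjusted p = 0.0502). Among the 10 brighter genes with the smallest p in the lower direction were Ccl12, Oas2 (-2.02), Ptx3 (-1.81), Ms4a4c (-1.73), Slfn2 (-1.15), Oas1a (-1.86), Trim30a (-1.47) and Plac8 (-1.93), with limma adjusted p from 0.0634 to 0.101 for all but Ccl12. Oas2 and Oas1a are antiviral sensors of double-stranded RNA, Ptx3 is a soluble pattern receptor, and Ms4a4c and Plac8 mark monocytes. The other 2 of the 10 were Dnm2, a dynamin of endocytosis (-0.27), and D2hgdh, which breaks down D-2-hydroxyglutarate (-1.39, and -0.74 with the mean of its 2 probe sets).

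The 10 brighter genes with the smallest p in the higher direction did not pass either. Zfp180, a zinc finger gene, ran from 7.48 to 8.58 (median 8.11) in p53R172HCKO gliomas and from 6.4999 to 8.05 (median 7.37) in p53nullCKO gliomas, a difference of 0.74 ± 0.15 with limma adjusted p = 0.0503. The others were Fbxo11, a ubiquitin ligase subunit (0.52), Rdh13, a retinol dehydrogenase (0.69), Cry1, a repressor of the circadian clock (0.59), Osbpl8 (0.61), Kif2a, a kinesin that shortens microtubules (0.74), Nfx1 (0.47), Cttnbp2 (1.16), Carf (0.60) and Ythdf3, a reader of methylated RNA (0.45). Their limma adjusted p lay between 0.0634 and 0.101. When the probe sets of each gene were averaged, Kif2a differed by 0.40, Cttnbp2 by 0.69, Carf by 0.37 and Ythdf3 by 0.29. In 6 of 11 p53R172HCKO gliomas Zfp180 was above every p53nullCKO glioma.

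Interferon-induced genes were the list with the largest share of members lower in p53R172HCKO gliomas. The promoters of 4 of them are shown first, since the ISRE letters stand close to the gene start there. The pattern searched was GAAANNGAAA, or TTTCNNTTTC on the other strand, in RefSeq windows of GRCm38.p6 that reach from 250 bases before to 50 bases after a gene start. A match was found in 20 of 37 interferon-induced genes with a window (54.1%), in 524 of 14452 genes on the arrays (3.63%) and in 3.44% of all 32851 windows. The 4 stretches of 100 bases below belong to the list members with the smallest p whose window had a match, and are written 5′ to 3′ on the strand of the gene with the matched bases in capitals.
Oas1a, chr5:120907491-120907590, minus strand, match 20 bases before the start: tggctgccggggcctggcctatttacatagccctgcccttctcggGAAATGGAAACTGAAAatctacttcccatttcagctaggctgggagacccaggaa
Trim30a, chr7:104465175-104465274, minus strand, match 36 bases before the start: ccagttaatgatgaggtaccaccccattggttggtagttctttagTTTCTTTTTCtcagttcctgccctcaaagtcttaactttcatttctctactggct
Oas3, chr5:120777680-120777779, minus strand, match 75 bases before the start: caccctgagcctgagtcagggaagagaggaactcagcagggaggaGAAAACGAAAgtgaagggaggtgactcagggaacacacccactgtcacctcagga
Socs1, chr16:10785565-10785664, minus strand, match 83 bases before the start: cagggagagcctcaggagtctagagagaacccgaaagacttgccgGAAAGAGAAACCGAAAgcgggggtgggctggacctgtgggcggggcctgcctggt
In Oas1a and Socs1 the capitals cover 2 overlapping matches. Isg20 and Ccl12 had no match in their windows, which says only that these letters are not there. A match is a run of letters and was not measured as a bound site. The list was written from genes known to respond to interferon, so its larger share of matches says nothing about the genotypes.

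Of 47 measured interferon-induced genes (52 in the list), 38 were lower in p53R172HCKO gliomas at unadjusted p under 0.05 (80.9%) and 0 were higher, where all genes gave 6.09% lower and 5.03% higher. Only Isg20 passed the adjusted test. The median difference of the 47 was -1.20 log2, with 45 below 0, and that of all genes was -0.002. The gliomas alone gave 34 lower members, where all genes gave 4.63%. The list was written with earlier results of these data known, so its share is a description.

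By role, the antiviral enzymes and sensors had the differences nearest to the threshold; members other than Isg20, Oas2 and Zbp1 were named after their values were seen. Oas2 differed by -2.02 ± 0.44, Oas1a by -1.86 ± 0.46 and Zbp1, a sensor of Z-form nucleic acid, by -1.78 ± 0.41. The RNA sensors Ifih1, Ddx58 and Dhx58 differed by -1.43, -1.01 and -1.34. The transcription factors Irf7, Irf9 and Stat2, which carry the type I signal, differed by -2.34, -1.08 and -0.97. Irf7 had the largest difference of the list and also a wide spread, with limma adjusted p = 0.256.

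The guanylate-binding and immunity-related GTPases, which respond to interferon gamma, had 8 of 9 members lower at unadjusted p under 0.05, and none passed the adjusted test. Gbp2 was at -1.79 (limma adjusted p = 0.171), Iigp1 at -1.70 (0.380) and Igtp at -1.46 (0.301), and Gbp6, at -1.20, was the member above that p. Usp18 and Socs1, feedback inhibitors of the pathway, differed by -1.95 and -0.43. A few members did not differ in this way. Irf8, a factor of the myeloid lineage, was at 0.18 ± 0.42, Adar at 0.03 ± 0.19, Samhd1 at -0.17 ± 0.20 and Trim25 at -0.20 ± 0.62.

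The genotypes overlapped tumor by tumor. The mean difference of the 47 genes from the cortices ran from -0.04 to 3.44 (median 1.63) in p53R172HCKO gliomas and from 1.45 to 4.29 (median 3.18) in p53nullCKO gliomas. Of the p53R172HCKO gliomas, 5 (arrays 50, 54, 56, 58 and 64) lay below the lowest p53nullCKO glioma, array 37. Array 58 among them had neuron markers near the cortex level. Its mean of cell cycle genes over cortex was 0.89, where the other p53R172HCKO gliomas ran from 2.78 to 3.68. The paper reports that histology showed normal tissue contamination in a primary tumor of the missense genotype. The labels do not say which array that tumor is, and the part of normal tissue in the low value of array 58 was not tested. Arrays 48, 52 and 60, with interferon-induced means of 3.04, 2.88 and 3.44, were within the range of the p53nullCKO gliomas. So were arrays 46, 62 and 67, with 1.67, 1.63 and 2.35. In array 60, 46 of 47 members were above the median of the 22 gliomas, and in array 58 1 of 47 was. Among p53nullCKO gliomas, arrays 36, 37 and 39 had 11, 5 and 5 members above it, and the others 28 to 47. The 11 glioma cell lines, all p53R172HCKO and grown apart from other cells of the tumor, ran from -0.35 to 2.09 with a median of 0.18.

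**Figure D2:**
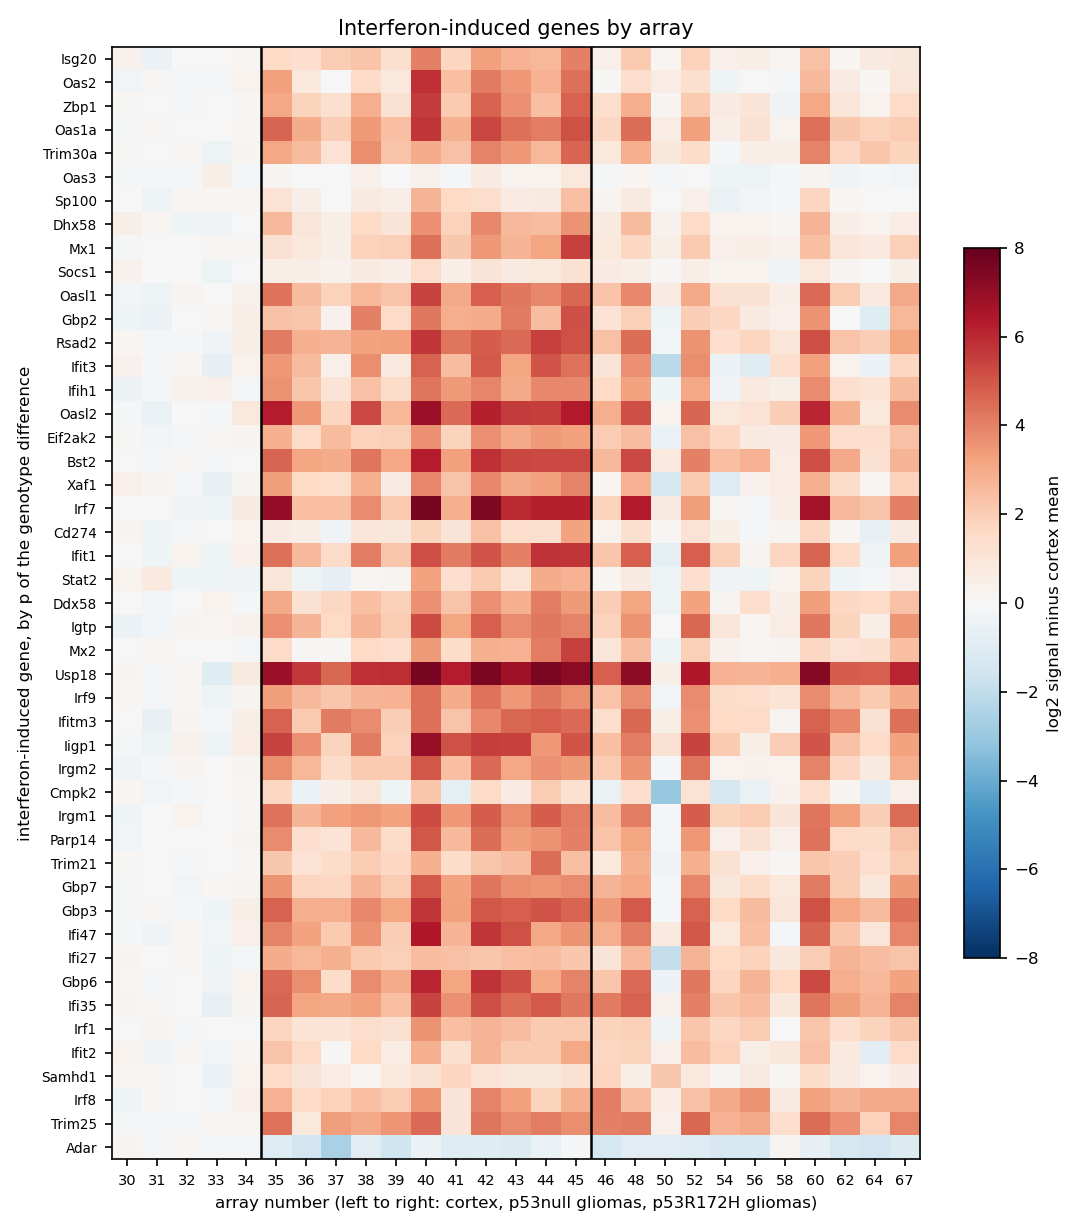
Log2 signal of 47 interferon-induced genes (rows, ordered by p of the genotype difference) minus the mean of 5 cortices, for each array (columns), with black lines between cortices, 11 p53nullCKO and 11 p53R172HCKO gliomas. Arrays 50, 54, 56, 58 and 64 on the right are pale over most rows. Arrays 48, 52 and 60 resemble the p53nullCKO gliomas other than arrays 36, 37 and 39, which are lower.

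Markers of immune cells moved in part with these genes. Of 14 measured genes of homeostatic microglia none was lower or higher at unadjusted p under 0.05. The mean of those genes ran from -1.80 to 1.09 (median -0.34) in p53R172HCKO gliomas and from -1.23 to 0.77 (median 0.09) in p53nullCKO gliomas, relative to cortex. With that mean as a covariate in the 22 gliomas, 29 of 47 interferon-induced genes were lower at unadjusted p under 0.05, where all genes gave 4.97%. Without arrays 38, 45 and 58, 24 were lower (all genes 4.74%), and without arrays 36, 41 and 50, 32 (all genes 6.26%). Leaving out each glioma in turn gave 27 to 40.

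A sign of RNA quality, read from actin, moved too. The 3′ minus 5′ log2 signal of the actin control probe sets, which is larger in more degraded RNA, ran from 0.24 to 0.83 (median 0.40) in p53R172HCKO gliomas and from 0.20 to 0.48 (median 0.32) in p53nullCKO gliomas, with arrays 50, 58 and 64 the highest. With it as a covariate, 16 of 47 interferon-induced genes were lower at unadjusted p under 0.05, where all genes gave 3.88%, and their median difference was -0.76. The same actin measure was higher in the cortices, from 0.52 to 0.81 (median 0.69). For Gapdh the measure ran from -0.11 to 0.31 in p53R172HCKO and from -0.04 to 0.07 in p53nullCKO gliomas. Its median was -0.0049 in each genotype, and arrays 50, 58 and 64 were again the highest gliomas. The part of RNA quality in the result was not tested further, nor was that of normal brain tissue in the actin measure.

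Chemokines and their receptors also had a large share. Of 40 measured members (42 in the list), 17 were lower at unadjusted p under 0.05 (42.5%) and 0 higher, where all genes gave 6.09% lower and 5.03% higher. The counts of lists, cell types and chromosomes that follow are to be read against the same shares. Ccl4 and Ccl12 passed the adjusted test, and the median difference was -0.38. Ccl3 (-1.56), Ccl7 (-1.58), Ccl5 (-1.87), Ccl2 (-1.38) and Ccl9 (-1.20) attract monocytes and T cells, and Cxcl9 (-1.06), Cxcl10 (-1.62) and Cxcl11 (-0.68) are the interferon-induced ligands of Cxcr3. Apart from Ccl3, these were named after their values were seen. In 6 p53R172HCKO gliomas the mean of the 40 genes lay below every p53nullCKO glioma, and 5 p53nullCKO gliomas lay above every p53R172HCKO glioma. The gliomas alone gave 15 lower members (all genes 4.63%), and there the microglia covariate gave 16 (4.97%) and the actin covariate 8 (3.88%).

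Further immune lists also had more members lower than higher at unadjusted p under 0.05. Of 53 cytokines and cytokine receptors 16 were lower and 0 higher, with a median of -0.31. Besides Il1b these included Il1rn, the antagonist of its receptor (-0.72), and Il4ra (-0.79). NF-kB genes and targets had 9 of 34 lower, a count that holds Il1b, Ccl3 and Ccl4 again.

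Antigen presentation had 5 of 24 lower, with a median of -0.59. They included Psmb10 of the immunoproteasome (-0.64), the peptide loading factor Tapbp (-0.65) and the class II chain H2-Aa (-1.12). Complement had 6 of 13 lower, with C3ar1, a receptor for the C3 fragment (-0.94), C1ra (-0.81) and Cfb (-0.70). Phagocyte signalling and adhesion had 8 of 36 lower, with the Fc receptor Fcgr1 (-0.9999), the oxidase subunit Cyba (-0.70) and Clec5a (-0.75). Inflammasome and Toll-like receptor genes were mixed, with 4 of 30 lower, Pycard (-0.83) among them, and 2 higher.

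Markers of blood-derived cells were given by the same counts. Of 19 monocyte and macrophage markers 5 were lower and 1 higher, and their mean over cortex was 1.28 ± 0.59 (SD, n = 11) in p53R172HCKO and 1.62 ± 0.48 in p53nullCKO gliomas. Of 13 neutrophil markers 5 were lower, with S100a9 at -1.14, Csf3r at -0.42 and Camp at -0.37. Of 22 lymphocyte markers 6 were lower, with Gzmb, a granzyme of cytotoxic cells, at -0.73, Gzma at -0.54 and Cd3e at -0.16. Camp (3.92 to 5.25) and Cd3e (4.50 to 5.12) were near the low end of the signals in all 22 gliomas. Gzmb and Gzma were highest in the p53nullCKO arrays 40 (6.65 and 5.75) and 42 (5.61 and 5.11). Genes at or below the median gene leaned lower as a whole, with 776 lower and 286 higher among 9097. The lymphocyte mean lay between -0.43 and 0.07 in p53R172HCKO and between -0.33 and 0.30 in p53nullCKO gliomas, near the cortex level in both. Dendritic cell markers had 3 of 9 lower, 1 of them the interferon-induced Bst2 (-1.73).

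**Figure D3:**
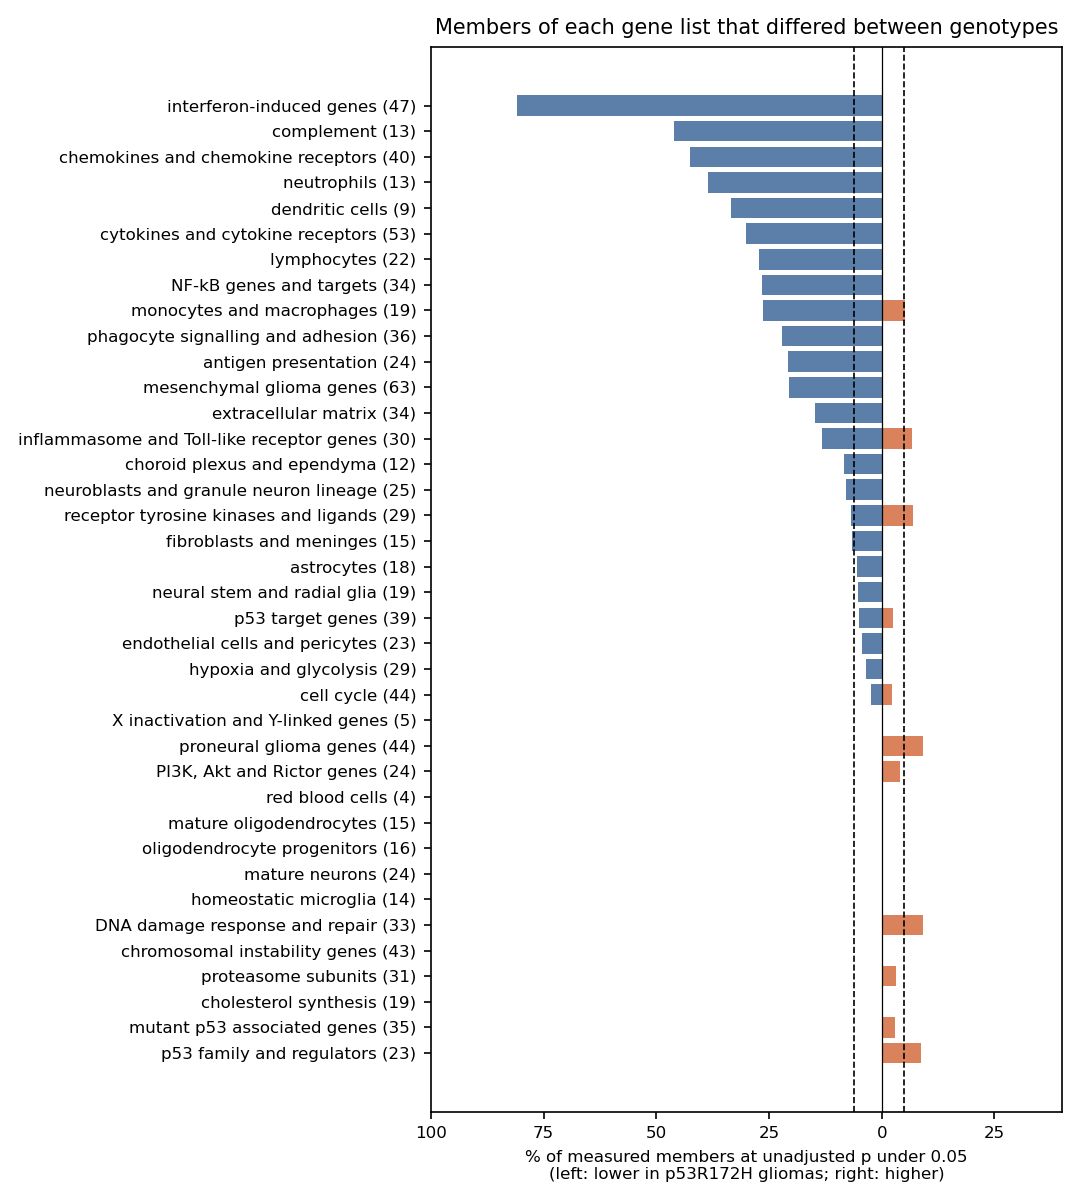
Share of measured members of each gene list (number in brackets) at unadjusted p under 0.05, lower in p53R172HCKO gliomas to the left and higher to the right, with dashed lines at the shares of all genes (6.09% and 5.03%). The interferon-induced list reaches 80.9% on the left, and no list exceeds 10% on the right.

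Lists of tumor cell states showed smaller differences. Mesenchymal glioma genes, which describe a state of human glioblastoma with matrix and myeloid genes, had 13 of 63 lower and 0 higher, with a median of -0.36. Of those with the smallest p, Sp100 (-0.90) is also interferon-induced, Il4ra a cytokine receptor and Cyba a phagocyte gene, and in all 7 of the 13 were also members of an immune list. Proneural glioma genes had 4 of 44 higher and 0 lower, with a median of 0.22, and Fhod3 (0.90), Atat1 (0.61) and Ncam1 (0.44) had the smallest p. Without arrays 36, 41 and 50 these were at 0.58, 0.36 and 0.26, none of them at unadjusted p under 0.05. Extracellular matrix genes had 5 of 34 lower, with Loxl1 (-1.52), Lum (-1.52) and Timp1 (-1.45), and Timp1 was at -0.88 without arrays 38, 45 and 58.

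Few markers of neural cell types were at unadjusted p under 0.05. Oligodendrocyte progenitor genes had 0 of 16 in either direction, and Pdgfra and Olig2, which were high in most of these gliomas, differed by -0.04 ± 0.48 and 0.39 ± 0.59. Pdgfra ran from 8.09 to 13.81 (median 12.27) against 10.29 to 12.87 (median 12.42). Astrocyte genes had 1 of 18 lower, Gfap, at -1.38 ± 0.62 with limma adjusted p = 0.399, and a median of -0.49 with 17 of 18 below 0. Of 19 stem and radial glia genes only Hopx (-1.24) was at unadjusted p under 0.05. The lineage factor Atoh1 (-1.58) was high in 2 tumors of one genotype, arrays 36 and 41, with 11.23 and 11.13, against a p53nullCKO median of 3.75. It and Zic2 (-1.30) were the 2 of 25 neuroblast and granule neuron genes lower at unadjusted p under 0.05, and without arrays 36, 41 and 50, 0 were, with Atoh1 at -0.30 and Zic2 at -0.72.

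Mature neuron genes had 0 of 24 in either direction, with means from -6.16 to -0.57 relative to cortex in p53R172HCKO and from -6.21 to -0.58 in p53nullCKO gliomas. Array 58 of the former and arrays 38 and 45 of the latter made the upper ends. Genes of mature oligodendrocytes, endothelial cells and pericytes, fibroblasts, red blood cells and choroid plexus had at most 1 member each at unadjusted p under 0.05. Rarres2, a chemoattractant precursor counted there with the ependyma, was lower by a difference of -0.82 ± 0.19 (limma adjusted p = 0.0766).

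**Figure D4:**
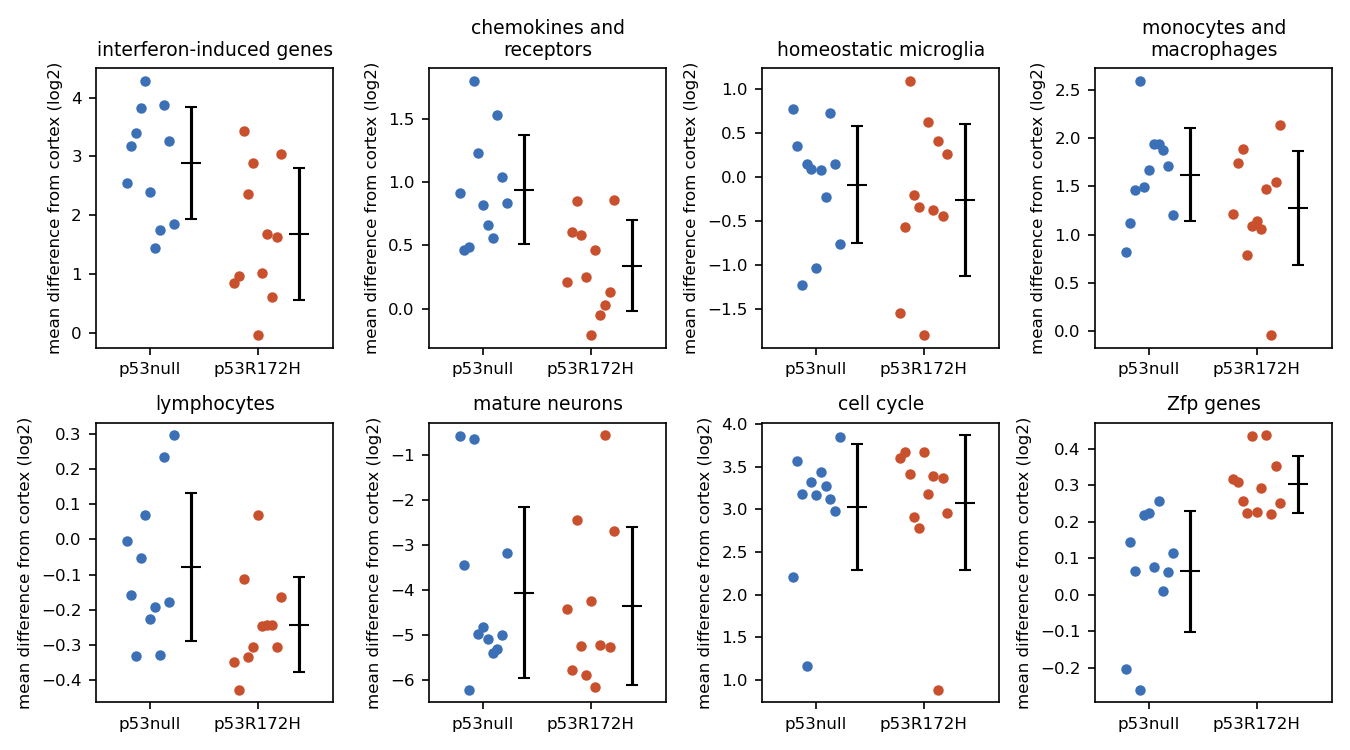
Mean difference of the genes of 7 lists and of the Zfp genes from the cortices (log2), 1 point per glioma (p53nullCKO blue, p53R172HCKO orange), with the mean and SD of each genotype as a black bar. The genotypes overlap in every panel, and the Zfp panel has 9 p53nullCKO gliomas below the lowest p53R172HCKO glioma.

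Few genes that act with p53 or respond to it were at unadjusted p under 0.05. The targeted gene itself was not analysed here, so the labels were not checked by its level. Of 39 measured p53 target genes 1 was higher, Polk (0.40), and 2 were lower, Gadd45a (-0.83 ± 0.29) and Plk3 (-0.45), with a median of 0.01. Cdkn1a, the main cell cycle inhibitor under p53, ran from 7.85 to 10.64 (median 9.44) in p53R172HCKO and from 8.64 to 11.28 (median 10.06) in p53nullCKO gliomas, a difference of -0.54 ± 0.37 with limma adjusted p = 0.626. Mdm2, the ubiquitin ligase of p53, differed by 0.09 ± 0.12.

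Of 23 p53 family members and regulators 2 were higher, the deubiquitinase Usp7 (0.29) and the damage kinase Atr (0.43), with a median of 0.11. Genes that other work tied to missense p53, such as nucleotide synthesis, Pdgfrb and multidrug transporters, had 1 of 35 higher, Dck (0.46), and 0 lower, with a median of 0.18. In 4 p53R172HCKO gliomas their mean lay above every p53nullCKO glioma. The same count was 3 for oligodendrocyte progenitor genes and 3 for DNA damage response and repair. Cell cycle genes such as Cdk1 and Ccnb1 are among the members tied to missense p53. Cholesterol synthesis, also tied to missense p53, had 0 of 19 in either direction with a median of -0.16, and proteasome subunits had 1 of 31 higher, Psmc4 (0.32), with a median of -0.06.

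Few proliferation genes were at unadjusted p under 0.05, and most differences were above 0. Cell cycle genes had 1 of 44 higher, E2f3 (0.48), and 1 lower, Cdk6 (-1.39), with a median of 0.18, and Mki67 differed by 0.46 ± 0.47. Cdk6 was at 12.91 and 12.41 in arrays 36 and 41, against a p53nullCKO median of 7.92, and without arrays 36, 41 and 50 its difference was -0.37 with unadjusted limma p = 0.439. Chromosomal instability genes had 0 of 43 in either direction, with 37 of 43 above 0 and a median of 0.25. DNA damage response and repair had 3 of 33 higher, Prkdc (0.43), Topbp1 (0.56) and Atr, with a median of 0.22. Cdkn2a was high in both genotypes, with medians of 11.72 and 11.53 against a cortex mean of 4.19, and differed by -0.16 ± 0.39.

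Growth factor pathways were near the background. Receptor tyrosine kinases and ligands had 2 of 29 higher and 2 lower, with Pdgfa, a ligand of Pdgfra, at -0.90 ± 0.26, Insr at 0.55 and Fgf2 at -0.28. Egfr differed by -0.40 ± 0.69 and Myc by 0.01 ± 0.40. Nf1, a brake on Ras, was the 1 higher gene of 24 in the PI3K, Akt and Rictor list, at 0.36 ± 0.16, and at 0.07 with the mean of its 3 probe sets. Other genes given here as higher also missed unadjusted p under 0.05 with the mean of their probe sets, namely Polk, Dck, Psmc4, Topbp1, E2f3, Insr, Atat1 and Ncam1. Hypoxia and glycolysis had 1 of 29 lower, Pfkfb4 (-0.43), and 25 of 29 below 0.

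Tumor genomes of both models carry gained and lost chromosomes, and gene expression was therefore read by chromosome. The SD over autosomes of the chromosome medians, relative to cortex, was 0.0742 ± 0.0258 (SD, n = 11) in p53R172HCKO and 0.0666 ± 0.0255 in p53nullCKO gliomas, a difference of 0.00753 with p = 0.4998 in a two-sided permutation test of 100000 resamples. Chromosome 19 had the lowest median difference, -0.09 log2, with 61 of 611 genes lower (9.98%) and 4 higher. Its median relative to cortex ran from -0.42 to -0.03 (median -0.18) in p53R172HCKO gliomas and from -0.27 to 0.05 (median -0.11) in p53nullCKO gliomas. Chromosome 13 had 83 of 705 genes higher (11.8%) and 25 lower, and chromosome 16 had 63 of 598 higher (10.5%) and 28 lower.

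The genotypes differ by the allele of Trp53 on chromosome 11, and the 20 measured genes on either side of it were read as its neighbours. Of these 40 genes 2 were higher and 2 lower at unadjusted p under 0.05, none passed, and their median difference was -0.05. Ccl12 and Ccl4 are on the same chromosome, with 242 and 275 measured genes between them and Trp53. Sex-linked genes varied within both genotypes, with Xist from 5.09 to 13.14 in p53R172HCKO and from 4.85 to 13.27 in p53nullCKO gliomas.

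Zinc finger genes named Zfp stood out among those higher in p53R172HCKO gliomas; this group was chosen after its values were seen, so no test is given. Many of these proteins carry a KRAB domain that silences transposable elements and genes through Trim28. Of 336 Zfp genes 92 were higher at unadjusted p under 0.05 (27.4%) and 1 was lower, while the other 17857 genes had 824 higher (4.61%). None passed the adjusted test. Their median difference was 0.24 log2, and 287 of 336 were above 0.

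The differences of single Zfp genes were small. Those with the smallest p were Zfp180, Zfp619 (0.54 ± 0.12), Zfp141 (0.85 ± 0.20), Zfp354a (0.53 ± 0.13) and Zfp58 (0.73 ± 0.18). The Zfp genes that were higher lay on many chromosomes but unevenly. They were 22 of 83 on chromosome 7, 17 of 43 on chromosome 17, 9 of 28 on chromosome 13 and 5 of 22 on chromosome 11. Chromosome 16 had 4 of 4, chromosome 2 had 2 of 17 and chromosome 6 had 2 of 18. Chromosomes 10, 12, 14 and 19, with 3 to 5 Zfp genes each, had 0. The counts of higher genes on chromosomes 13 and 16 given above include these Zfp genes. The mean of the 336 genes over cortex ran from 0.22 to 0.44 (median 0.29) in p53R172HCKO gliomas and from -0.26 to 0.26 (median 0.08) in p53nullCKO gliomas, and 9 p53nullCKO gliomas lay below every p53R172HCKO glioma. The 2 lowest were arrays 45 and 38, which also had neuron markers near cortex. The glioma cell lines ran from 0.12 to 0.51.

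Over all the alternatives that measured the 336 genes, 58 to 116 were higher at unadjusted p under 0.05. The count of Zfp genes higher was 72 in the gliomas alone (all genes 3.74%), 66 with the microglia covariate (3.65%), 86 with the actin covariate (4.96%) and 58 without arrays 38, 45 and 58 (3.64%). Without arrays 36, 41 and 50 it was 116 (5.65%). Brighter genes leaned higher as a whole, with 630 higher and 332 lower among 9096 genes above the median gene, and 286 higher and 776 lower among the 9097 others.

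**Figure D5:**
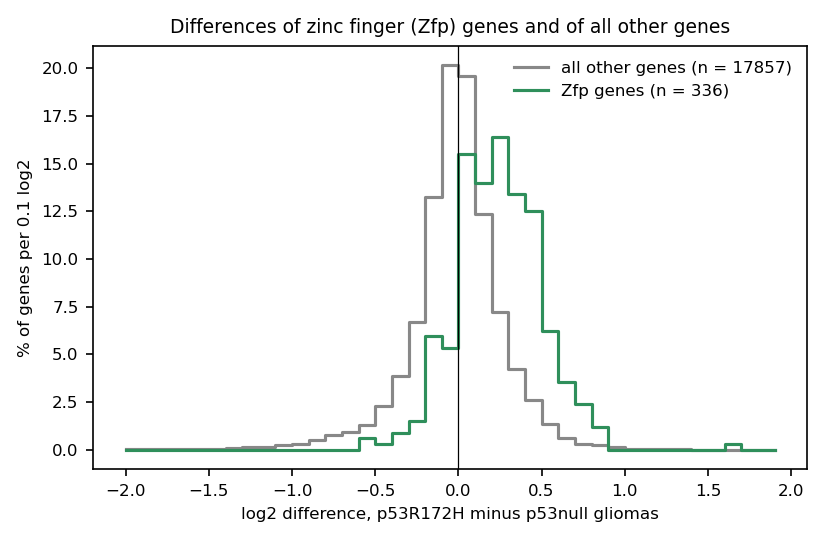
Distribution of the log2 difference (p53R172HCKO minus p53nullCKO gliomas) for 336 Zfp genes in green and 17857 other genes in grey, as percent of genes per 0.1 log2. The Zfp genes are centred near 0.24 and the other genes near 0.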

How the data were processed

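The authors hybridised RNA of 40 samples to Affymetrix whole-genome mouse arrays, corrected the background, normalized by quantiles and summarized probe sets by robust multi-array average, and deposited 1 value per probe set and array. The deposited values, 2.00 to 14.47, were read as log2 signals. The number of arrays limits the precision, and quantile normalization hides a shift common to most genes.

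Of 45101 probe sets, 64 controls were used for RNA quality alone, 34945 named 1 gene, and 932 with several and 9160 without a gene in the annotation used were left out. Each of 18193 genes was represented by the probe set of highest mean signal on the 40 arrays. limma 3.58.1 in R 4.3.3 (lmFit, contrasts.fit, eBayes) fitted 5 groups, with Benjamini-Hochberg adjustment over all genes. An alternative fit held the 22 gliomas alone, as did the fits with a covariate. In simulated data for this comparison with 18193 genes, 37.3% of changes of 0.5 log2, 79.1% of 1 and 95.5% of 2 were found. There, 7 unchanged genes were also called. The simulated noise was normal, independent between genes, and had for each gene an SD pooled over the 5 groups. It thus lacked the larger spread of the gliomas and any outlying tumor, so these shares are not those of the real gliomas. The chromosome spread was tested in Python 3.11.15 with scipy 1.17.1.

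Members and lists were chosen with earlier results of these data known. Named genes were those called, the 10 per direction with the smallest p among genes above the median signal, up to 3 members per list with the smallest p, and a few fixed genes. Trp53 was not analysed here. Its planned test by probe set was therefore not run. Nothing in the labels ties arrays to litters, dates or batches, so p-values describe the variation among these tumors, whose source animals are not given. Alternatives were other probe set rules, a filter on dim genes, cyclic loess, median centring, array weights, trend and robust moderation, a threshold of 0.10, the methods' t-test, covariates, and gliomas left out. The actin covariate and the single left-out gliomas for the interferon list were chosen after seeing the data.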

Additional observations from a re-analysis of the deposited data

How the results depend on the processing

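The 6 genes called lower became 13 with array weights, 1 with the actin covariate, 21 at an adjusted p under 0.10, 5 when probe sets were averaged (not H1f7), and 0 with cyclic loess, without dim genes, in the gliomas alone, by the methods' t-test after adjustment, with the microglia or the neuron covariate, and without arrays 38, 45 and 58. The gene left with the actin covariate was 4930404N11Rik. Leaving out single gliomas gave 0 to 38 genes lower and 0 to 33 higher. The 0 genes called higher became 1 with array weights, without arrays 36, 41 and 50, and without probe sets ending in _x_at or _s_at, and 12 at an adjusted p under 0.10. The 1108 genes lower at unadjusted p under 0.05 became 330 without dim genes. In the gliomas alone 843 genes were lower, and 705 with the actin covariate added. The methods' t-test gave 911 lower and 708 higher at its own threshold.

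Of the interferon-induced genes 38 were lower, 24 without arrays 38, 45 and 58, and 16 with the actin covariate. Of the chemokine genes 17 were lower, 8 with the actin covariate and 5 of the 14 left without dim genes. The actin counts come from the gliomas alone and are to be read against the counts of the gliomas alone given above. The cause was not tested, except that fewer genes were tested without dim genes and fewer arrays were used with the actin covariate. No called value reversed its direction in the alternatives run. Across them, 104 values of named genes lost a call at adjusted p under 0.05 and 81 gained one. Of the 6 called genes 5 were at or below the median gene in signal, and no detection calls were used here. The sign of the chromosome spread, never called, turned with the mean of the 22 gliomas as reference (-0.00485) and with bright genes (-0.00156). Trp53 by probe set was not run. No paired analysis was possible because the 2 genotypes share no array number and the labels give no pairs.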

Other observations

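D2hgdh was not spread evenly over the p53R172HCKO gliomas. It was at 8.59, 8.96, 8.51 and 8.96 in arrays 46, 48, 50 and 52, inside or just below the range of the p53nullCKO gliomas (8.63 to 9.46), and at 5.84 to 7.67 in the other 7. H1f7, among the called genes, was at 4.38, 4.27, 4.43 and 4.43 in the same 4 arrays, and at 3.91 to 4.17 in the other 7 with the exception of array 58 (4.44). Array numbers follow the genotype, and the part of array order in either gene was not tested. The gene families Oas and Slfn, counted after their values were seen, had 7 of 10 members each lower at unadjusted p under 0.05, with medians of -0.80 and -0.65, and none passed the adjusted test.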
